A study of Mus musculus with 5 samples.

Results

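The transcription factor genes Lef1, Msx1, Msx2, Hoxc13, Dlx1, Dlx2, Dlx3, Dlx4, Foxn1 and Gata3 act in the hair matrix, the dividing cells at the base of a growing hair follicle, and in the lineages that arise from it. They were taken by gene symbol, as a named list, and make up 10 of the 56691 gene IDs in the deposited count table; all 10 were found and all 10 had enough reads to be tested. RNA was sequenced from mouse back skin keratinocytes at 28 days of age. The GFP group (3 libraries) held cells sorted for GFP, labelled as Lrig1 positive keratinocytes and epidermal stem cells, with a genotype entry of Lrig1 positive. The Bulk group (2 libraries) held the whole population without that sort, labelled as basal keratinocytes with a wild-type genotype, although GFP 1 and Bulk 1 share one title number and GFP 2 and Bulk 2 another. No label describes the construct, the promoter that drives GFP or how the sort was gated. Nor do they say whether replicate libraries stem from different mice, so p-values measure only the spread between these libraries.

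Hair is built by matrix cells that divide around the dermal papilla and then differentiate into the hair shaft and, around it, the inner root sheath. Lef1 brings Wnt signals to their target genes in shaft precursors, the homeobox factors of the Msx, Dlx and Hoxc families and the forkhead factor Foxn1 act as matrix cells differentiate, and Gata3 is needed for the inner root sheath. Lrig1 marks cells of the upper follicle, outside the matrix, and mouse back follicles at about this age pass from rest into a new growth phase.

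Total counts ran from 71410484 to 89080100 in the GFP libraries and were 56829330 and 105887450 in the Bulk libraries. GFP 3 stood apart in sex-linked transcripts: it held 53714 counts of Xist, against 0 in the other GFP libraries and 0 and 8 in Bulk, and 62 counts of Ddx3y, a gene of the Y chromosome, while every other library held at least 1750. By these counts GFP 3 read as female and every other library as male. GFP 3 thus came from a different animal, and sex was not balanced between the groups. Lrig1 averaged 216 ± 8.75 CPM (counts scaled to one common library size, TMM-adjusted) in GFP and 159 ± 5.82 CPM in Bulk (SD, n = 3 and 2), a log2 difference of 0.44 ± 0.18 (SE) that edgeR did not call (adjusted p = 0.292). All 11 basal keratinocyte markers, Krt5 and Krt14 among them, were present in every library, with a summed level of 35140 to 43848 CPM in GFP and 22772 to 25694 CPM in Bulk. None of the 11 was called by edgeR, with 4 higher at an unadjusted p under 0.05, 2 higher by DESeq2 and 0 by limma-voom. The 12 suprabasal markers summed to 10774 to 15122 CPM in GFP and 19287 to 24225 CPM in Bulk, so neither group was free of suprabasal RNA.

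Of the 10 hair matrix factors, 9 were lower in GFP-sorted cells and none was higher. Lef1 showed the widest gap, with a GFP mean at 1.92% of the Bulk mean, and Dlx3 came next at 10.8%. Msx1, Msx2, Hoxc13, Dlx1, Dlx2 and Dlx4 stood at 20.99% to 30.4% of Bulk and Foxn1 at 40.0%. Gata3, at 72.3%, was the member that did not pass. These calls came from edgeR's quasi-likelihood test across 18583 genes with a Benjamini-Hochberg adjusted p under 0.05. In the same fit 955 genes (5.14%) were called lower and 27 (0.145%) higher, with a median log2 difference of 0.05 over all genes and -2.08 over the 10 factors. For 9 of the 10, every GFP library lay below every Bulk library, a pattern seen in 18.5% of all tested genes; the opposite pattern, seen in 14.6% of tested genes, was met by none of the 10. With bulk RNA, fewer cells of a type and less RNA per cell cannot be told apart. The count was 9 without GFP 3, but only 4 without Bulk 2, where Lef1, Hoxc13, Dlx2 and Dlx3 stayed called. A lone Bulk library is assumed in that fit to vary like the GFP libraries.

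**Figure D1:**
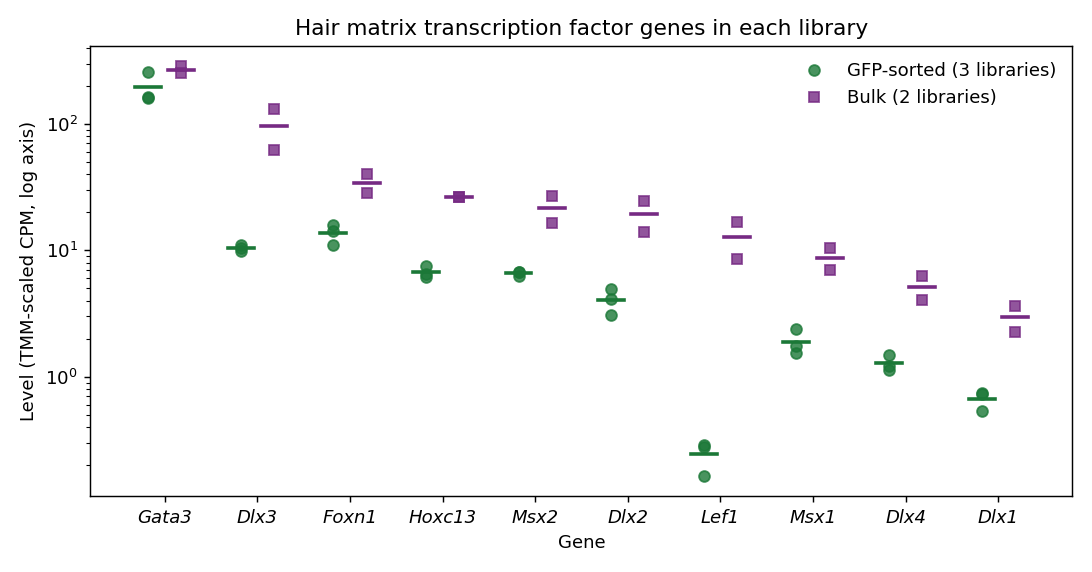
Levels of the 10 hair matrix factor genes in each library, in TMM-scaled CPM on a log axis; circles are the 3 GFP libraries, squares the 2 Bulk libraries and bars the group means. The GFP circles lie below both Bulk squares for every gene except Gata3, where GFP 2 lies above Bulk 1.

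Lef1 (ENSMUSG00000027985.15, chromosome 3), the nuclear partner of beta-catenin in Wnt signalling, was close to absent in sorted cells. GFP 1, 2 and 3 held 13, 19 and 26 Lef1 counts, against 512 and 1873 counts in Bulk 1 and 2. On the CPM scale these were 0.165, 0.287 and 0.279 in GFP, against 8.56 and 16.8 in Bulk. Every GFP library was far below both Bulk libraries, which themselves differed by 1.96-fold. The log2 difference was -5.70 ± 0.42 (SE; 95% interval -6.66 to -4.74; edgeR adjusted p = 3.14e-04), and it stayed called in 15 of 15 alternative analyses. An antisense gene that overlaps Lef1, Gm43352, had 0 counts in all 3 GFP libraries, against 33 and 69 in Bulk; since strandedness is not stated, reads of the overlap cannot be assigned to one strand.

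The related factors that share a DNA-binding domain with Lef1 did not show a gap of that size. Tcf7 had 15.3, 15.7 and 15.9 CPM in GFP, against 25.1 and 26.9 CPM in Bulk, with no overlap between the groups. Its log2 difference of -0.74 ± 0.18 did not pass (edgeR adjusted p = 0.0619). Tcf7l1, a repressor of Wnt targets known from hair follicle stem cells, and Tcf7l2 differed by -0.10 ± 0.21 and -0.05 ± 0.25 on the log2 scale, with Tcf7l2 overlapping between groups. As a share of the summed counts of these 4 genes, uncorrected for gene length, Lef1 made up 0.408%, 0.669% and 0.556% in GFP, against 13.9% and 22.2% in Bulk. The exact two-sided permutation p for this share was 0.1, the smallest that 3 against 2 libraries allow (0.125 after adjustment over the 5 family shares examined).

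The Lef1 promoter is shown because Lef1 moved most and because the factor it encodes binds a known short motif. The sequences printed here are the 250 bases before the transcription start in RefSeq's table on GRCm38.p6, an earlier build than the GRCm39 of the counts; 7 of the 10 factor genes had an entry (Lef1, Msx1, Msx2, Dlx1, Dlx2, Foxn1 and Gata3), while Hoxc13, Dlx3 and Dlx4 are named only. The LEF/TCF motif was searched as CTTTGA on both strands and was found in 0 of the 7, against 14.08% of 27025 promoters of the same length. A homeodomain core, searched as TAATT on both strands, was found in 2 of the 7 (Msx2 and Foxn1), against 25.42% of all promoters; in TAATTA the matches of the 2 strands overlap. The GATA motif AGATAA and the TATA motif TATAAA were found in 0 of the 7, against 10.23% and 12.98%. The 7 promoters held 61.6% to 70% G and C bases, above the median of 52% of all promoters. The Lef1 sequence (chr3:131110047-131110296, plus strand) is all in lower case because none of the 4 motifs occurred in it. A stretch shortly after its start gave no net sense match to GENCODE M21 transcripts of Lef1. The start and strand of this window therefore rest on RefSeq alone.
Lef1: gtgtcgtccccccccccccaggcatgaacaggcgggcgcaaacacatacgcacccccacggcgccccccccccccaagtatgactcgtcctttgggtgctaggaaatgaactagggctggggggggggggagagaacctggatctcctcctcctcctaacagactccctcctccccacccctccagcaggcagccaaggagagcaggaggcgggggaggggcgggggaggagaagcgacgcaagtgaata

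Both Msx genes, homeobox factors that act downstream of BMP signals in the matrix, were lower in sorted cells, Msx1 by the wider margin. Msx1 (ENSMUSG00000048450.11, chromosome 5) had 1.74, 1.54 and 2.40 CPM in GFP 1, 2 and 3, against 6.97 and 10.4 CPM in Bulk 1 and 2. The highest GFP value was well below the lower Bulk value. The log2 difference of Msx1 was -2.20 ± 0.31 (edgeR adjusted p = 0.00555). Msx2 (ENSMUSG00000021469.10, chromosome 13), whose loss in mice disturbs hair shaft differentiation and hair retention, had 6.31, 6.76 and 6.76 CPM in GFP, against 16.6 and 26.9 CPM in Bulk. The GFP libraries agreed closely for Msx2, at 6.61 ± 0.260 CPM (SD), while the Bulk libraries differed by 1.62-fold. Msx2 fell by 1.72 ± 0.25 (edgeR adjusted p = 0.00625). Neither call held without Bulk 2, where the adjusted p was 0.0603 for Msx1 and 0.0642 for Msx2. Msx1 made up 21.6%, 18.5% and 26.2% of the counts of the pair in GFP, against 29.6% and 27.9% in Bulk, a difference that the exact permutation test left at p = 0.2. Msx3, the remaining family member, was at 0 in GFP 1, GFP 2 and Bulk 1 and was not tested.

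The Msx2 promoter (chr13:53472781-53473030, minus strand, GRCm38.p6) is shown because it held the homeodomain core, which is also what Msx proteins themselves bind. The core was in 25.42% of all promoters, and binding of Msx proteins here was not tested. The capitals mark the matches, whose first bases lie at -187, -186 and -176 from the transcription start.
Msx2: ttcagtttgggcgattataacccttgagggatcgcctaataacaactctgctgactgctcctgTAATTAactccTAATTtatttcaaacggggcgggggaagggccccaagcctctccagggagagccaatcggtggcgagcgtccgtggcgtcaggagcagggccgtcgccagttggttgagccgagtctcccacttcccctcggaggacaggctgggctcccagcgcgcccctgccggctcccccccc

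All 4 Dlx genes on the list, homeobox factors related to Drosophila Distal-less, were lower in sorted cells, and the gap was widest for Dlx3. Dlx3 (ENSMUSG00000001510.9, chromosome 11), which is needed for hair shaft and inner root sheath formation in mice, had 11.03, 9.80 and 10.5 CPM in GFP, against 61.9 and 131.9 CPM in Bulk. The GFP libraries lay close together, at 10.4 ± 0.614 CPM (SD), while the Bulk libraries differed by 2.13-fold, the widest ratio among the 10 factors. Dlx3 fell by 3.22 ± 0.31 on the log2 scale (edgeR adjusted p = 9.15e-04). Dlx4 (ENSMUSG00000020871.9, chromosome 11), a low-level gene of the same family, had 1.14, 1.48 and 1.22 CPM in GFP, against 4.01 and 6.30 CPM in Bulk, and fell by 2.01 ± 0.32 (edgeR adjusted p = 0.00937). Its overlapping antisense gene Dlx4os had 49, 46 and 61 counts in GFP, against 76 and 264 in Bulk, and reads of the overlap cannot be told apart.

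Dlx1 and Dlx2, a neighbouring gene pair on chromosome 2, had nearly the same profile at different levels. Dlx2 (ENSMUSG00000023391.9) had 3.08, 4.10 and 4.92 CPM in GFP, against 13.99 and 24.4 CPM in Bulk. Dlx1 (ENSMUSG00000041911.4) had 0.532, 0.724 and 0.739 CPM in GFP, against 2.27 and 3.62 CPM in Bulk. In both genes GFP 1 was the lowest library and Bulk 2 the highest, with no overlap between the groups. Dlx2 had a log2 difference of -2.25 ± 0.31 (edgeR adjusted p = 0.00494) and Dlx1 one of -2.15 ± 0.37 (0.0132). The antisense gene Dlx1as, which overlaps Dlx1, had 18, 37 and 88 counts in GFP, against 48 and 192 in Bulk, with GFP 3 above Bulk 1. Without Bulk 2 the calls of Dlx1 and Dlx4 were lost (adjusted p = 0.157 and 0.118), while those of Dlx2 and Dlx3 were kept.

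Dlx5, the tested Dlx gene outside the list, had 5.41, 5.20 and 7.13 CPM in GFP, against 11.7 and 10.1 CPM in Bulk. Its groups did not overlap, but the log2 difference of -0.88 ± 0.24 did not pass (edgeR adjusted p = 0.0961). Dlx5 made up 25.5%, 24.4% and 29.2% of all Dlx1 to Dlx6 counts in GFP, against 12.5% and 5.72% in Bulk (exact permutation p = 0.1, the smallest possible; 0.125 adjusted over 5 shares). Every GFP library had a larger Dlx5 share than either Bulk library, although the level of Dlx5 itself was lower in GFP. The total includes Dlx1 to Dlx4, which were called lower, so this share is not a result separate from those calls. Dlx6 had no count in any library.

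Hoxc13 (ENSMUSG00000001655.7, chromosome 15), the homeobox factor that switches on hair keratin genes and whose loss leaves mice without normal hair, was lower in sorted cells and was the most even of the factors within the Bulk group. GFP libraries 1, 2 and 3 had 7.45, 6.17 and 6.50 CPM, against 26.5 and 26.4 CPM in Bulk. Its mean was 6.71 ± 0.663 CPM in GFP and 26.5 ± 0.115 CPM in Bulk (SD, n = 3 and 2). The log2 difference of Hoxc13 was -1.98 ± 0.20 (edgeR adjusted p = 0.00114), and it stayed called in 15 of 15 alternatives.

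The other genes of the Hoxc cluster, which give body position along the trunk, gave no call in this fit. Of the 8 with a row, 5 were tested. edgeR called 0 of them, as did DESeq2 and limma-voom, and Hoxc5 was the 1 gene higher at an unadjusted p under 0.05. Hoxc4, Hoxc6 and Hoxc8 had log2 differences of 0.28, 0.16 and 0.25, and Hoxc9 one of -0.55. Hoxc5 had 6.36, 5.01 and 5.96 CPM in GFP, against 3.90 and 3.71 CPM in Bulk, with every GFP library above both Bulk libraries (log2 difference 0.60 ± 0.25, edgeR adjusted p = 0.302). Hoxc10, Hoxc11 and Hoxc12, the neighbours of Hoxc13, did not exceed 0.332 CPM in any library and were not tested. Hoxc10 had 0, 2 and 2 counts in GFP, against 6 and 37 in Bulk, so its groups did not overlap. Hoxc11 and Hoxc12 had 0 counts in every GFP library and in Bulk 1, with 3 and 4 counts in Bulk 2. Hoxc13 made up 12.9%, 12.7% and 12.9% of the cluster's counts in GFP, against 39.9% and 41.8% in Bulk. This share averaged 12.8 ± 0.0966% in GFP and 40.9 ± 1.39% in Bulk (exact permutation p = 0.1, the smallest possible; 0.125 adjusted over 5 shares).

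**Figure D2:**
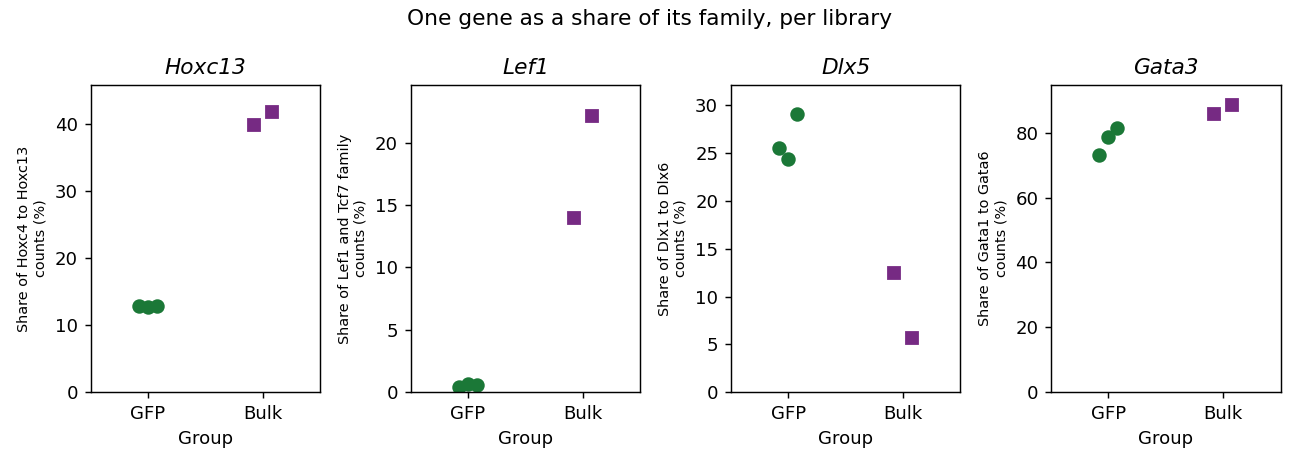
Share of family counts taken by Hoxc13, Lef1, Dlx5 and Gata3 in each library, in percent on linear axes from 0; circles are the 3 GFP libraries and squares the 2 Bulk libraries. The Hoxc13 share is near 13% in the GFP libraries and at or above 39.9% in Bulk, and the Dlx5 share is the panel in which GFP lies higher.

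Foxn1 (ENSMUSG00000002057.5, chromosome 11), the forkhead factor mutated in nude mice, whose hair shafts fail to form properly, showed the smallest of the called differences. GFP 1, 2 and 3 had 10.9, 14.3 and 15.96 CPM, against 28.2 and 40.3 CPM in Bulk. The highest GFP library, GFP 3, stayed below the lower Bulk library. Foxn1 fell by 1.32 ± 0.25 on the log2 scale (edgeR adjusted p = 0.0195). This call did not hold without GFP 2 (adjusted p = 0.0516) or without Bulk 2 (0.187). Of its relatives, Foxn2 had a log2 difference of 0.24 ± 0.19 and Foxn3 one of 0.01 ± 0.29, neither called, and Foxn4 had no count in any library.

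The Foxn1 promoter (chr11:78386609-78386858, minus strand, GRCm38.p6) is the second that held the homeodomain core, here as a single TAATTA. The capitals mark it, with its overlapping matches starting at -29 and -28 from RefSeq's transcription start. A stretch shortly after that start gave no net sense match to GENCODE M21 transcripts of Foxn1. The start and strand of this window therefore rest on RefSeq alone.
Foxn1: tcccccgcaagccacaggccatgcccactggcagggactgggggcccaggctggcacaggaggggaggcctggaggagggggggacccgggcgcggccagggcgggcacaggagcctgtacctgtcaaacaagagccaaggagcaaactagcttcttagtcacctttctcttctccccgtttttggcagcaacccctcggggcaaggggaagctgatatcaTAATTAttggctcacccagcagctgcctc

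Gata3 (ENSMUSG00000015619.11, chromosome 2), a zinc finger factor of the inner root sheath that is also used by interfollicular epidermis and by T cells, stayed abundant in sorted cells. Its levels were 161, 259 and 164 CPM in GFP, against 254 and 285 CPM in Bulk. GFP 1 and GFP 3 lay below both Bulk libraries, while GFP 2 lay above Bulk 1. The group means were 195 ± 55.5 CPM in GFP and 269 ± 22.3 CPM in Bulk (SD, n = 3 and 2). The log2 difference of -0.47 ± 0.26 was not called (edgeR adjusted p = 0.444), and its 95% interval ran from -1.06 to 0.12. The interval does not reach -1.32, the estimate of Foxn1 and the smallest difference among the called factors. It does overlap the 95% interval of Foxn1, which ran from -1.89 to -0.756. Whether Gata3 differs from the called factors was not tested. Gata3 was called by edgeR with the replicate number as a block, with a log2 difference of -0.39 and an adjusted p of 0.0216. That fit leaves 1 residual degree of freedom and called 3652 of 18583 genes lower and 3040 higher.

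Gata6, the other abundant GATA gene of these libraries and a factor of upper follicle and sebaceous duct cells, had 58.9, 70.4 and 37.3 CPM in GFP, against 42.4 and 36.5 CPM in Bulk. The groups overlapped and the log2 difference of 0.49 ± 0.28 was not called (edgeR adjusted p = 0.455). Gata2, at most 0.0750 CPM in GFP and 0.170 CPM in Bulk, differed by -1.81 ± 0.70 and was not called. Gata3 made up 73.3%, 78.6% and 81.4% of all GATA counts in GFP, against 85.6% and 88.6% in Bulk (exact permutation p = 0.1, the smallest possible; 0.125 adjusted over 5 shares). Over all 14 listed relatives of the Lef/Tcf, Msx, Dlx, GATA and Foxn families, 8 were tested and edgeR called 0. At an unadjusted p under 0.05 there were 3 lower, DESeq2 called 2 lower and limma-voom 0.

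The Gata3 promoter (chr2:9878601-9878850, minus strand, GRCm38.p6) is shown as that of the factor gene that was not called; it held none of the 4 motifs.
Gata3: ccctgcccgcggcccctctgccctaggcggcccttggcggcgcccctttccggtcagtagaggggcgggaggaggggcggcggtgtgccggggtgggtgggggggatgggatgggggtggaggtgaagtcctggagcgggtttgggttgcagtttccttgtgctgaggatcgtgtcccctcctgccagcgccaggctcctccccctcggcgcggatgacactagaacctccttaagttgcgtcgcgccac

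**Figure D3:**
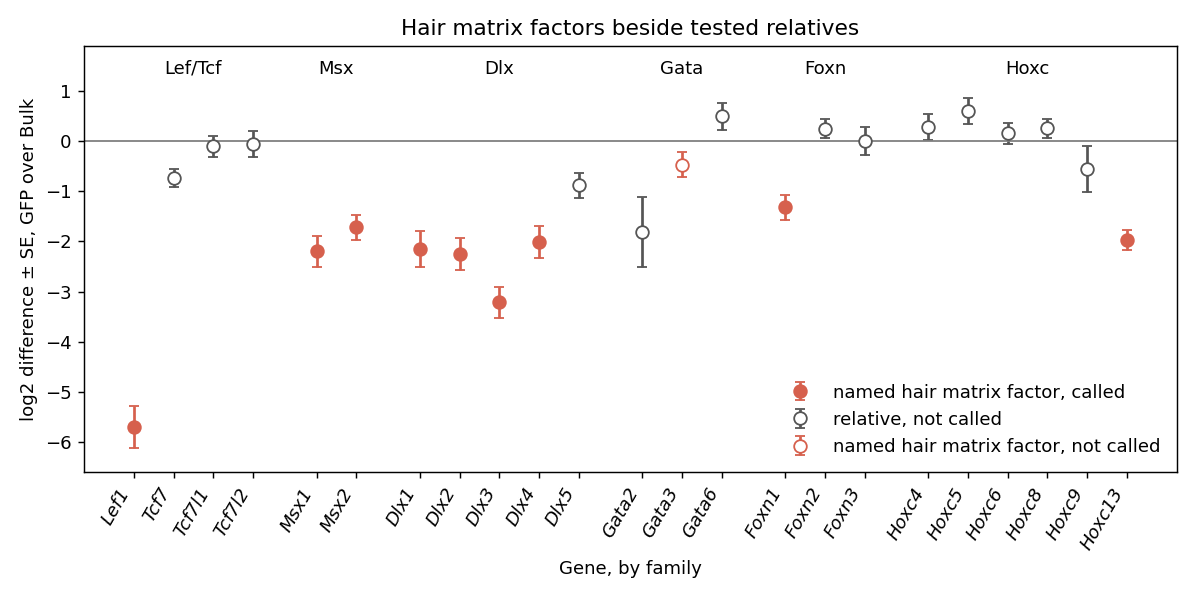
Fitted log2 difference (GFP over Bulk, ± SE) of each hair matrix factor gene and each tested relative, grouped by family on the horizontal axis; filled points are genes called by edgeR and open points genes that were not. The 9 filled points lie between -5.70 and -1.32, and every relative is open.

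Per kilobase of transcript, which allows levels of different genes to be set side by side, Gata3 led in both groups, at 60.6 CPM per kb in GFP and 83.7 in Bulk. In GFP the next levels were those of Foxn1 (4.27) and Dlx3 (4.001), which overlapped, followed by Hoxc13 (2.72) and Msx2 (2.69), which also overlapped. The remaining GFP levels were 1.63 for Dlx2, 0.977 for Msx1, 0.561 for Dlx4, 0.162 for Dlx1 and 0.0665 for Lef1, with no overlap between neighbours. In Bulk, Dlx3 stood second at 37.2 CPM per kb. Hoxc13 (10.7), Foxn1 (10.7), Msx2 (8.85) and Dlx2 (7.77) followed, each overlapping its neighbour in this order, and so did Msx1 (4.49), Lef1 (3.47) and Dlx4 (2.26) after them. Dlx1 was last in Bulk at 0.716 CPM per kb. Lef1 was last of the 10 in GFP and rank 8 in Bulk, where its range overlapped those of Msx1 and Dlx4 but not that of Dlx1. Foxn1 was rank 2 in GFP and rank 4 in Bulk, with the overlaps given above.

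The Bulk libraries were not alike for most of these genes. Bulk 2 exceeded Bulk 1 by a median of 1.58-fold over the 10 factors, against 0.999-fold over all tested genes, with Hoxc13 (0.994) and Gata3 (1.12) nearest to equal. Comparing libraries of one title number, GFP 1 over Bulk 1 gave a log2 difference of -2.49 for Dlx3 and GFP 2 over Bulk 2 gave -3.75. Msx1 likewise gave -1.99 and -2.74. The same comparisons gave -5.51 and -5.76 for Lef1, -1.83 and -2.09 for Hoxc13, and -1.37 and -1.50 for Foxn1. Each factor was lower in the GFP library of both numbers, including Gata3 (log2 differences -0.65 and -0.14).

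**Figure D4:**
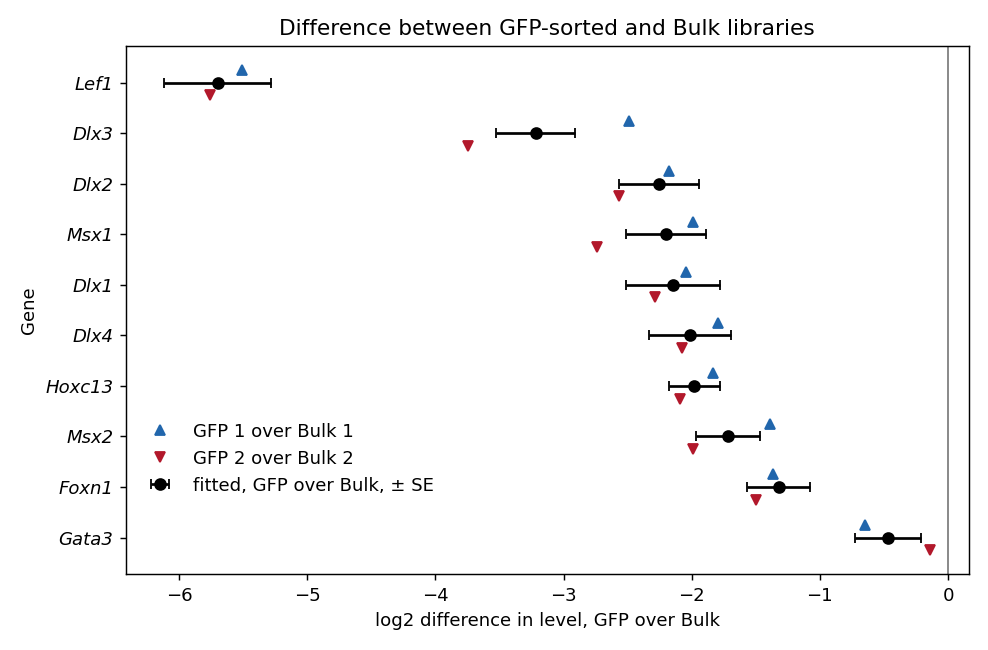
Log2 difference of GFP over Bulk for each factor gene: black points are the fitted difference ± SE over all 5 libraries, upward triangles GFP 1 over Bulk 1 and downward triangles GFP 2 over Bulk 2. All triangles lie below 0, and those of Dlx3 (-2.49 and -3.75) are farthest apart.

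Genes that build the structures these factors act in were lower in sorted cells as well. Of 14 tested hair shaft keratin genes 13 fell and none rose, with a median log2 difference of -6.67, against 0.05 over all tested genes. Krt81 had 0.0253, 0.0754 and 0.0428 CPM in GFP, against 36.7 and 32.1 CPM in Bulk, a log2 difference of -9.49 ± 0.36, and those of Krt33a, Krt87 and Krt86 were -6.61 ± 0.27, -7.90 ± 0.34 and -7.43 ± 0.43. Krt32, a keratin of the hair cuticle, was the exception, with 22.3, 17.5 and 9.91 CPM in GFP, against 13.7 and 12.4 CPM in Bulk, and no call in this fit (log2 difference 0.34 ± 0.33, edgeR adjusted p = 0.672). Reads that match several of these related keratin genes depend on how the authors' counting shared them out. Of 12 inner root sheath genes 12 fell, with a median of -5.46; Krt25 and Krt28, keratins of that sheath, had log2 differences of -5.48 ± 0.33 and -4.31 ± 0.31, and Krt26 and Krt27 of -6.20 ± 0.37 and -6.63 ± 0.47. The summed level of the hair shaft list was 14.8 to 32.0 CPM in GFP, against 716 and 835 CPM in Bulk. That of the inner root sheath list was 83.9 to 89.1 CPM in GFP, against 1564 and 3033 CPM in Bulk. Bulk 2 over Bulk 1 had a median of 1.10-fold in the shaft list and of 1.80-fold in the sheath list.

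Among signals of the matrix, Shh, the hedgehog ligand made by part of the matrix, was the gene that fell. It had 2, 2 and 3 counts in GFP, against 99 and 282 in Bulk, a log2 difference of -6.09 ± 0.48 (edgeR adjusted p = 4.28e-04). Its receptor and target gene Ptch1 had 18.4, 27.0 and 22.6 CPM in GFP, against 34.3 and 48.6 CPM in Bulk, and did not pass (log2 difference -0.87 ± 0.24, edgeR adjusted p = 0.0947). Wnt10a, a ligand of the follicle and epidermis, rose by 0.84 ± 0.19 (edgeR adjusted p = 0.0461), a call that was lost in 7 of 15 alternatives: when GFP 1, GFP 2, Bulk 1 or Bulk 2 was left out, when genes had to reach 1 CPM in 2 libraries, when TMM scaling was dropped, and after removal of the length and GC trend. The Wnt target gene Axin2 had 47.3, 47.0 and 55.6 CPM in GFP, against 62.6 and 63.8 CPM in Bulk, with no call (log2 difference -0.34 ± 0.18, edgeR adjusted p = 0.416). Over the 22 tested signal genes 1 fell and 1 rose, and the median log2 difference was -0.05. Of all tested genes, 5.14% were called lower and 0.145% higher. BMP ligands and the BMP receptor gene Bmpr1a were among those not called: Bmp2, Bmp4 and Bmpr1a differed by 0.36, 0.55 and -0.18 on the log2 scale.

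The low levels did not extend to every other transcription factor of the follicle. Of 18 others tested, which include factors of the outer root sheath and bulge, 2 fell and 0 rose. Over all tested genes 5.14% were called lower. The median log2 difference of the 18 was 0.06. Runx3, a factor of hair shape that is also active in T cells and Langerhans cells, had 0.519, 0.271 and 0.386 CPM in GFP, against 6.52 and 8.34 CPM in Bulk, and fell by 4.23 ± 0.36 (edgeR adjusted p = 5.38e-04). Trps1, a GATA-type repressor, had 2.89, 2.71 and 4.67 CPM in GFP, against 10.4 and 16.6 CPM in Bulk, and fell by 1.98 ± 0.33 (edgeR adjusted p = 0.0114). Without Bulk 2 the list had 1 call. Sox9 and Lhx2, factors of the outer root sheath and bulge, differed by 0.47 ± 0.30 and 0.11 ± 0.27 with overlapping groups. Cux1, a factor of the inner root sheath, had 109, 143 and 103 CPM in GFP, against 145 and 216 CPM in Bulk, which did not pass (log2 difference -0.61 ± 0.24, edgeR adjusted p = 0.268). The 16 cell cycle genes, which dividing matrix cells also use, had a median log2 difference of 0.35. Of these, edgeR called 0, with 4 higher at an unadjusted p under 0.05, 1 called by DESeq2 and 0 by limma-voom.

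Markers of other cell types moved with the same contrast, and some of these cells use the factors described: Lef1 and Gata3 are expressed by T cells, and Lef1 and Msx genes by cells of the dermal papilla. Of 13 tested T cell markers 13 fell, with summed levels of 11.9 to 20.5 CPM in GFP, against 178 and 164 CPM in Bulk; Il2rb, Trdc, Cd3e and Cd247 were the 4 with the smallest p. Of 10 melanocyte markers 9 fell, with 10.7 to 17.4 CPM in GFP, against 303 and 125 CPM in Bulk. Here Bulk 1 was the higher library, by a median of 0.341 for Bulk 2 over Bulk 1, the reverse of the order seen for most of the factors. Of 12 Langerhans cell and myeloid markers 10 fell; the list summed to 339 to 574 CPM in GFP and 659 to 665 CPM in Bulk, with Epcam, which keratinocytes also express, at 306 to 539 CPM in GFP and 304 and 296 CPM in Bulk. Of 13 fibroblast and dermal papilla markers 4 fell (Dcn, Crabp1, Pdgfra and Corin), and 1 did so without Bulk 2. Their sums ran from 23.7 CPM in GFP 3 to 175 CPM in GFP 1, against 211 and 186 CPM in Bulk. Bulk 2 over Bulk 1 had a median of 1.92 for these markers and 1.58 for the 10 factors. It was 1.01 for T cell, 0.986 for Langerhans cell and myeloid, 0.775 for endothelial and 0.803 for suprabasal markers. Of 6 endothelial markers Tie1 and Cldn5 fell, neither without Bulk 1 or without Bulk 2, with sums of at most 1.84 CPM in GFP and 3.39 to 4.50 CPM in Bulk. Of 12 suprabasal markers 5 fell, among them Lor, Cdsn, Dsc1 (also on the inner root sheath list) and Sbsn, and none rose. No listed marker of these types was at 0 in all libraries, and Cd8a was the T cell marker at 0 in every GFP library. The part of any of these cells in the levels of the 10 factors was not tested.

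Profiles over the 5 libraries were compared by the root mean square (RMS) difference of log2 CPM after centring each gene on its mean. Among the 10 factors, Dlx1 and Dlx2 were the closest pair (0.113), followed by Dlx1 and Dlx4 (0.136) and by Msx2 and Dlx4 (0.174). Lef1 and Gata3 were farthest apart (2.49). Of all other tested genes, Shh (0.261), Krt25 (0.274) and Tchh (0.336), the gene of trichohyalin in the inner root sheath, had profiles most like that of Lef1. For Msx1 they were Ptafr (0.0596), Trps1 (0.127) and Sp110 (0.136), of which Ptafr and Sp110 did not exceed 0.888 CPM in any library. Genes of lymphocytes came first for several factors: Il18rap, a cytokine receptor subunit, for Hoxc13 (0.0733), the cytokine gene Il2 for Dlx1 (0.123) and the receptor gene Pdcd1 for Dlx3 (0.174). All of these were low, with at most 0.401 CPM in any library. For Hoxc13 the next were AC154652.2 (0.086) and Spns2 (0.0943), with Spns2 at 4.10, 3.83 and 3.31 CPM in GFP, against 14.2 and 14.8 CPM in Bulk. The genes nearest to Dlx2, Dlx4 and Msx2 were Myo5c (0.123), Mchr1 (0.116) and Faim2 (0.111), and Gcnt1 was among the 3 nearest to both Dlx1 (0.131) and Dlx2 (0.124). The copper transporter gene Atp7a was nearest to Foxn1 (0.0603), with 9.03, 10.9 and 13.8 CPM in GFP, against 23.3 and 34.4 CPM in Bulk. Arsg (0.0598) and Mpzl2 (0.067) were nearest to Gata3, neither of them called. With 5 libraries in 2 groups, such likeness rests mostly on the size of the group difference in these log2 CPM values. They include a prior count of 2, which shrinks the differences of genes with few counts. Pdcd1, nearest to Dlx3, had a fitted log2 difference of -6.88, against -3.22 for Dlx3. Il2, nearest to Dlx1, had one of -3.15, against -2.15 for Dlx1.

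**Figure D5:**
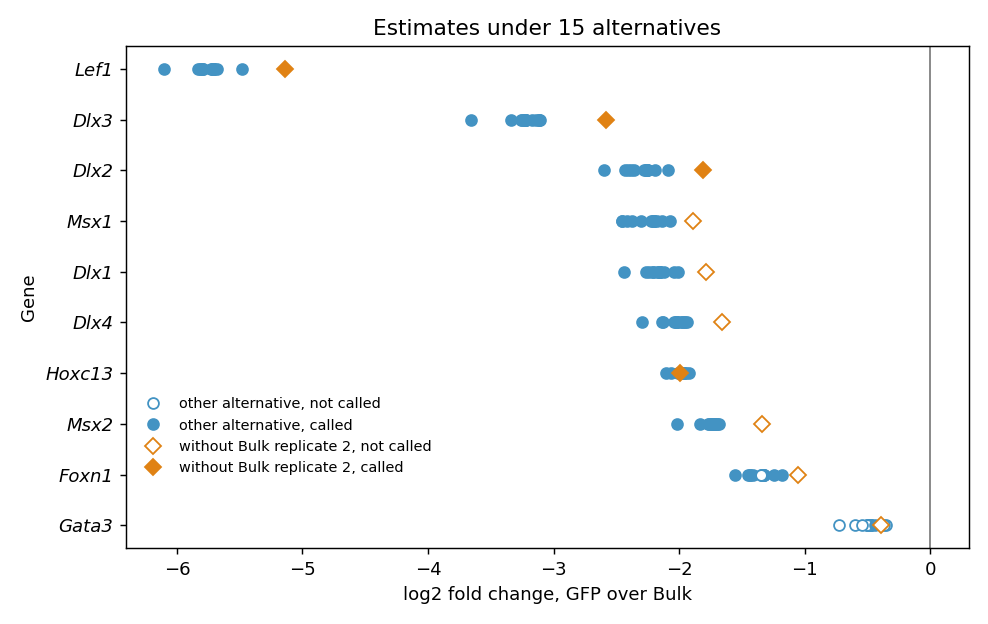
Fitted log2 fold change (GFP over Bulk) of each factor gene under 15 alternative analyses; filled symbols are called and open ones are not, and diamonds mark the fit without Bulk 2. No estimate lies above 0, and the diamonds of Msx1, Msx2, Dlx1, Dlx4 and Foxn1 are open.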

How the data were processed

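RNA-seq of 5 mouse libraries (3 GFP, 2 Bulk) was deposited by the authors as whole-number counts per versioned Ensembl gene ID, not normalized. STAR and GRCm39 are named in the submitters' processing notes; no label names the counting tool, its annotation, its strand setting or any filter. Of 56691 IDs, 52073 matched a symbol in GENCODE M21 and 4618 did not; gene lengths are those of the longest M21 transcript. Counts were tested with edgeR 4.0.16 (R 4.3.3): filterByExpr (minimum count 10, minimum total 15), TMM scaling, one group term, quasi-likelihood test, Benjamini-Hochberg adjustment over 18583 genes, threshold 0.05, with 3 residual degrees of freedom. The test also borrows variance across genes, so its p-values and intervals rest on more degrees of freedom than these 3. The standard error is the log2 difference divided by the square root of F. Levels are TMM-scaled CPM; profiles use log2 CPM with a prior count of 2. The script was tested on simulated data. Between replicates the chi-square of the counts was 133 to 407 times its degrees of freedom, so none was a repeat of another library. These counts carry no molecular identifiers.

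The 10 factors and all gene lists were chosen with earlier results of these data known, so lists are described by counts and medians without list tests. Named were all 10 factors, all measured relatives, up to 4 called genes of each other list with the smallest p (2 where none was called) and the 3 nearest profiles per factor, predicted models left out. Krt32, Ptch1, Axin2, Cux1, Sox9, Lhx2, Bmp2, Bmp4, Bmpr1a, Krt5, Krt14, Epcam and Cd8a were named outside this rule, after their values were seen. The 15 alternatives were other scalings, DESeq2 1.42.0, limma-voom (limma 3.58.1), other filters, a replicate block, removal of a length and GC trend (loess span 0.3; 476 genes without a length left out) and leaving out each library.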

Additional observations from a re-analysis of the deposited data

How the results depend on the processing

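Under 15 alternatives, 142 of 150 fold changes of the 10 factors kept their direction and side of the threshold, 6 lost the call, 2 gained it and 0 reversed. The number of factors called lower stayed at 9 except with the replicate block (10, with or without removal of the length and GC trend), without GFP 2 (8) and without Bulk 2 (4), a range of 4 to 9 when 1 library was left out; 0 were called higher throughout. The 2 gained calls were both Gata3, with the block (adjusted p = 0.0216) and with the block and trend removal (log2 difference -0.44, adjusted p = 0.00744). Over all genes, 982 calls became 1499 with the DESeq2 Wald test (1311 lower, 188 higher), 1918 with no filter on low counts (1660 lower, 258 higher), 6692 with the replicate block (3652 lower, 3040 higher) and 5851 with the block and trend removal (3046 lower, 2805 higher). Leaving out a library gave 480 to 1205 calls, with 523 without Bulk 1 and 480 without Bulk 2; those fits leave 1 Bulk library, and their causes were not tested. Library size alone moved the median log2 difference of all genes to -0.07, against 0.05 with TMM scaling. The block uses the title number, which the labels do not explain: it forms 2 pairs, leaves 1 residual degree of freedom and gains nothing from GFP 3. Across genes the difference of GFP 1 and GFP 2 correlated with that of Bulk 1 and Bulk 2 (Pearson r = 0.474; genes are not independent replicates). Among other lists, 355 of 420 counts stayed within 1.5 times. Counts that moved ran from 1 to 12 called lower for fibroblast and dermal papilla markers (4 as reported), 0 to 5 for endothelial markers (2), 5 to 10 for suprabasal markers (5), 1 to 7 for signals (1), 1 to 4 for other hair factors (2) and 0 to 3 for the relatives (0). For the Hoxc cluster 1 gene was called lower with no filter on low counts (0 as reported), and for cell cycle genes 0 to 1 was lower (0). Calls of higher level ran from 0 to 10 for basal markers (0), 0 to 6 for cell cycle genes (0), 0 to 5 for signals (1) and 0 to 5 for other hair factors (0). With the replicate block, with or without trend removal, 1 gene each was called higher among the Hoxc cluster, the relatives, the hair shaft keratins (Krt32), the myeloid markers and the suprabasal markers, against 0 as reported. Depth limits Lef1 most, with 13 to 26 counts per GFP library.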
